A study of Mus musculus with 6 samples.

Results

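The first exons described here are those that the transcript catalogue of each of 6 libraries listed under the same gene, strand and splice site, in genes with at least 3 of them on 1 strand. They number 1220 first exons in 366 genes, of 12564 first exons listed in all 6 libraries and of 42199 distinct first exons listed in at least 1. The series lists 15939 genes. The members were thus chosen by presence in every library, and the counts and splice positions that this fixes are given below as a description, without a test. Each gene had 3 (273 genes), 4 (71 genes), 5 (15 genes) or 6 (7 genes) constant first exons, where constant means listed in all 6 libraries. Just outside the rule were 1434 pairs of gene and strand with exactly 2 constant first exons, of which 169 had a further first exon in 5 of the 6 libraries.

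RNA came from the nucleus accumbens, a ventral striatal region of reward learning, of C57BL/6N mice that received morphine or saline injections in conditioned place preference training, an assay in which an animal learns to prefer the place paired with a drug. Each group has 3 samples, and the design text gives 6 mice per group. Age, sex and the mice behind each sample are not given in the sources read here, so p-values reflect the spread over samples, which may be technical. No genetic change is given for either group, and all samples are bulk tissue, in which fewer cells of a type and less RNA per cell cannot be told apart.

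Many mammalian genes are transcribed from more than 1 promoter. Each promoter gives the transcript its own first exon, which is spliced to exons that all forms share, so that a change of promoter can alter the 5′ untranslated leader, the first amino acids of the protein or the cell types in which the gene is read. In neurons such genes include the neurexins, whose long and short presynaptic adhesion proteins start at different promoters, and Gnas, an imprinted locus whose promoters give the stimulatory G protein subunit and several relatives.

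The catalogues hold no expression values or read counts that could be used, so the read depth is unknown and no interval or detection limit was computed. A catalogue lists, for each first exon, the splice site at which the exon ends and the position at which the assembled transcript starts. An exon missing from a catalogue was only not recorded, which does not show that its transcript was absent. The catalogues listed all 10 markers of medium spiny neurons, the main neurons of the accumbens, in every library. They also listed every marker of oligodendrocytes, astrocytes, microglia, ependyma and cortical glutamatergic neurons, 3 of 4 endothelial markers and 2 or 3 of 3 markers of the choroid plexus. Of distinct first exons, 18038 (42.7%) were in 1 library alone. Coordinates are read on GRCm38 through the GENCODE M21 annotation.

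The constant first exons were spread over very different distances. The promoter spread, the distance between the outermost splice sites of a gene, had a median of 5174 bases and quartiles of 781 and 63436.5 bases. It was 14 bases in Coro1b, which encodes an actin-binding coronin, and 2360712 bases in Tenm3, which encodes a teneurin adhesion protein. Genes with a spread of up to 1000 bases numbered 11 under 200 bases and 101 above it, whereas 93 genes had a spread of 10000 to 100000 bases and 68 a wider one.

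The word multi-promoter fits some of these genes and not others. Merging overlapping first exons, each taken at its shortest listed length, left 226 genes (61.7%) with 3 or more separate blocks, 90 genes with 2 blocks and 50 genes with 1 block. In the other 140 genes (38.3%) at least 2 of the splice sites were therefore alternative ends of overlapping exons. With annotated first exons of complete transcripts alone, 192 genes (52.5%) had 3 or more blocks. None of the 11 genes with the smallest spreads had 3 blocks, and 63 of the 68 genes with a spread over 100000 bases did. Transcript starts, counted as distinct at any distance from each other, numbered 3 or more in every library in 305 genes (83.3%), 2 in 21 genes and 1 in 5 genes. Starts a few bases apart count separately here, so this does not show separate promoters. The number of distinct starts differed between libraries in 51 genes, some of which are among the 305. In Shroom2, for example, the 2 downstream first exons began at the same position in each of the 6 libraries.

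**Figure D1:**
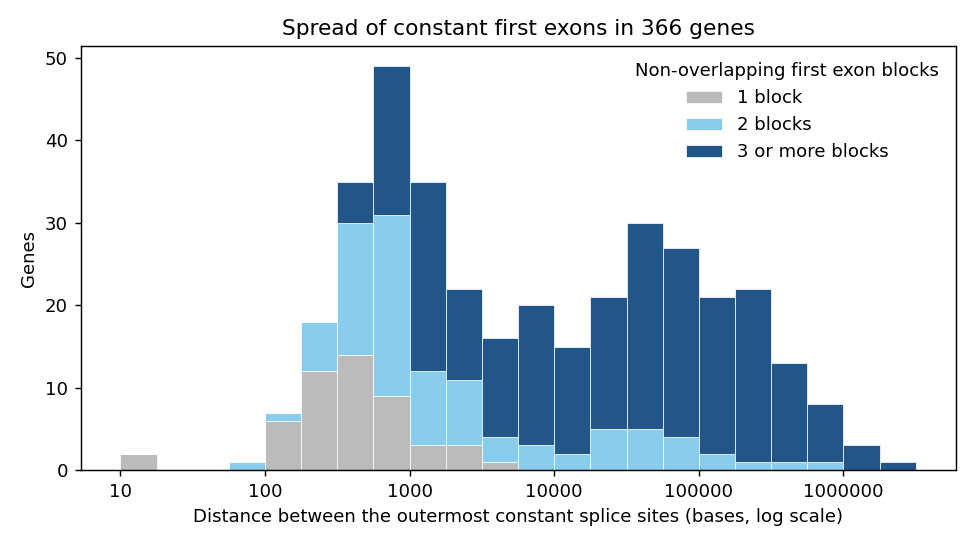
Number of genes (vertical axis) by the distance between the outermost constant splice sites (horizontal axis, bases, log scale) for the 366 genes, with bars stacked by the number of non-overlapping first exon blocks. Genes with 1 or 2 blocks lie mostly at spreads under 1000 bases, and 63 of the 68 genes over 100000 bases have 3 or more.

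Most of the constant first exons ended at known splice sites. The splice site was that of an annotated first exon for 1160 of 1220 (95.1%), against 97.3% of the constant first exons of all other genes. The listed start was also an annotated one in every library for 922 (75.6%), against 66.6%. These 1160 are 43.7% of the 2655 annotated first exon sites of the 366 genes, which had a median of 6 such sites per gene against 3 in the other genes. For 36 exons (2.95%) the only annotated transcripts that begin there have no complete 5′ end, against 0.291% of the other constant first exons. For 260 (21.3%) the splice site was also that of an internal exon of another transcript, against 7.92%. In 12 genes a constant first exon lay outside the annotated gene, Tenm3 and the axon guidance receptor gene Robo1 among them, and 364 of the 366 genes were protein-coding.

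First exons differ in whether translation begins in them. An annotated start codon lay in 347 of 1220 (28.4%), against 58.5% of the constant first exons of other genes, and for 742 (60.8%) annotated transcripts from that exon begin translation in a later exon, against 37.2%. Genes with 2 or more annotated start codons numbered 190, and 173 had 1. The share with 2 or more was 9.09% of the genes with a spread of up to 200 bases, 36.6% from there to 1000 bases, 43.0% from 1000 to 10000 bases, 65.6% from 10000 to 100000 bases and 75.0% beyond. Gene length moved with the spread, from a median of 5004 bases in the lowest of these classes to 371784 bases in the highest, and its part in these shares was not tested. Constant last exons were mostly single in the same genes: 3 of the 366 genes (0.82%) had 2 or more constant last exons, 232 had 1 and 131 had none, while 3.37% of the other genes with a constant first exon had 2 or more. Of the 1433 genes with exactly 2 constant first exons, 4 (0.279%) had 2 or more constant last exons, 65.8% had 1 and 33.9% had none.

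The genes with the most constant first exons were Abr, Celf2, Foxp1, Macf1, Map2, Ncor1 and Phldb1, with 6 each. Abr encodes a regulator of small GTPases, and its first exons were 138, 221, 505, 532, 1200 and 211 bases long in upstream to downstream order, with the same length in all 6 libraries. They spanned 153922 bases, and annotated start codons lay in the 4 downstream ones. Celf2 encodes an RNA-binding splicing regulator. Its 6 first exons spanned 674353 bases, and the only length that differed between libraries was that of the most upstream exon, 373 bases in saline replicate 1 and 67 bases in the other libraries. Foxp1 encodes a transcription factor of striatal neurons, and its 2 most upstream splice sites were 4 bases apart.

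Some of the exons in this group are short or incomplete in the annotation. Ncor1, which encodes a nuclear receptor corepressor, had a first exon of 3 bases in all 6 libraries, and 3 of its 6 first exons belonged to annotated transcripts without a complete 5′ end. The same held for 2 of the 6 first exons of Map2, the dendritic microtubule protein gene, with lengths of 37 and 76 bases in every library, and for 2 of the 6 of the cytoskeletal linker gene Macf1. The most upstream exon of Macf1 was not annotated, and its length was 169, 141 and 127 bases in saline and 146, 103 and 154 bases in morphine.

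**Figure D2:**
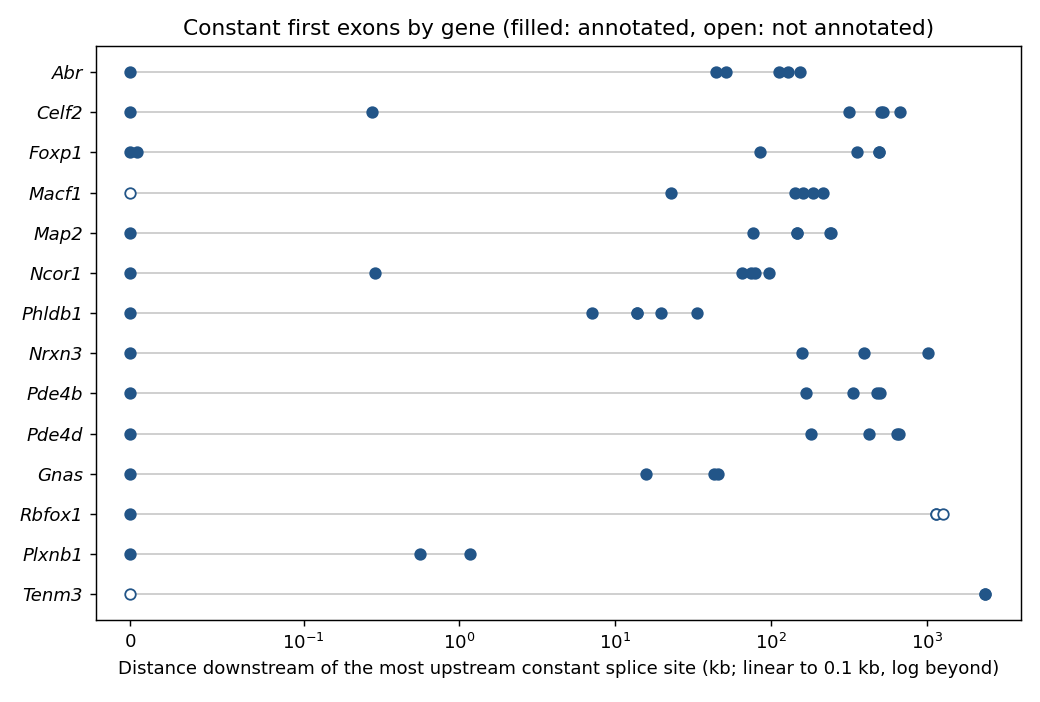
Constant first exons of 14 genes (rows) by the distance of their splice site from the most upstream one (horizontal axis, kb, linear to 0.1 kb and log beyond). Filled points are annotated first exons and open points are not annotated, as for the most upstream one of Tenm3, which lies 2360712 bases from the most downstream one, and 3 of the 4 of Rbfox1.

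Very wide spreads lay between annotated first exons in some genes and involved unannotated exons in others. The neurexin gene Nrxn3 had 4 constant first exons over 1017747 bases, and Nrxn2 had 3 over 79559 bases, all annotated. The phosphodiesterase genes Pde4b and Pde4d, whose enzymes break down cyclic AMP, had 5 each over 502413 and 666327 bases, and no Pde4b or Pde4d first exon differed in length between libraries. In Nrxn3, the exon next to the most upstream one was 31580 bases long in saline replicate 2 and 218 bases elsewhere, and the most downstream one was 19180 bases long in saline replicate 1 and 1158 bases elsewhere. In Tenm3 the most upstream exon was not annotated and lay outside the gene. Rbfox1, which encodes a neuronal splicing factor, had 3 unannotated exons among its 4, and the most downstream one was listed with lengths of 52987, 42709 and 5224 bases in saline and 52994, 35331 and 52987 bases in morphine.

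A list of 38 genes with known alternative promoters was compared with the rule. All 38 were listed in at least 1 library, and 12 had 3 or more constant first exons, among them Gnas, Nrxn2, Nrxn3, Pde4b, Pde4d, Ank2, Nr3c1, Sorbs2, Tcf4, Ptprd and Macf1. Of the others, 8 had none, 10 had 1 and 8 had 2. Bdnf, the neurotrophin gene with 10 annotated first exon sites, had no constant first exon.

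Gnas shows how the constant first exons of 1 locus can belong to different products. The most upstream, with its splice site at chr2 position 174284508, starts the transcript of the neuroendocrine secretory protein and was 189 bases long in all 6 libraries. The next, at 174300217, is the first exon of the extra-large G protein subunit, carries its start codon and was 2359 bases long in all 6. Exon 1A at 174327941 was 174 bases long in all 6 and contains no annotated start codon. The first exon of the stimulatory subunit itself ends at 174330434 and was 148, 148 and 346 bases long in saline and 429, 148 and 429 bases in morphine. Its length varied within each group, and the groups overlapped.

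The sequence before a transcript start was taken from RefSeq promoter windows (GRCm38.p6), which run from 250 bases before to 50 bases after a start. Of the 982 first exons whose gene has an entry, 459 lay within 50 bases of a RefSeq start, and these gave 380 distinct windows in 250 genes. The 180 bases before the start are shown for first exons of Gnas, Nrxn3, Ddr1 and Mtus2, because these genes have at least 2 such starts and carry results below or the widest spreads. Capitals mark, on either strand, the TATA box letters TATAAA, the CCAAT box by the letters of its name, the GC box letters GGGCGG and the cyclic AMP response element TGACGTCA. Each motif was searched by itself, whether or not it overlapped another.
Gnas, most upstream first exon, chr2:174284140-174284319, plus strand: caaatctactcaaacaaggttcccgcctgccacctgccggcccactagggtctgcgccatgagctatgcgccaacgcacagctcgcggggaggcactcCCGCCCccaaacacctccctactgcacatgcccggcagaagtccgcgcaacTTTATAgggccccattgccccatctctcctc
Gnas, exon 1A, chr2:174327588-174327767, plus strand: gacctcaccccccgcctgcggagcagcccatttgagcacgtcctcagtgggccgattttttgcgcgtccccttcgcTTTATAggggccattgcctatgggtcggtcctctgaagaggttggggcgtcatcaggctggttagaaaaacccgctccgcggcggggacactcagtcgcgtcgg
Nrxn3, most upstream first exon, chr12:88794324-88794503, plus strand: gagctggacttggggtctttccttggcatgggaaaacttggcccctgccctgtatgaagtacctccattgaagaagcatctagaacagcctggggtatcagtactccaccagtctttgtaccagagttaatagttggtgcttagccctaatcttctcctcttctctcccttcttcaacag
Nrxn3, next first exon, chr12:88953210-88953389, plus strand: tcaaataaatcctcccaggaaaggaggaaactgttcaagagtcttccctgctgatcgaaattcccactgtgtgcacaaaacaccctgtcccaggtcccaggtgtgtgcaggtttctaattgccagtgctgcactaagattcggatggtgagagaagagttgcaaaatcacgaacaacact
Nrxn3, most downstream first exon, chr12:89812303-89812482, plus strand: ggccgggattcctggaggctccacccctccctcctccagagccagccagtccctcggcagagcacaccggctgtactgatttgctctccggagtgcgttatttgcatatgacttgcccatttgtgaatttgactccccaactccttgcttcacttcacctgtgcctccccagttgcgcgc
Ddr1, most upstream first exon, chr17:35704600-35704779, minus strand: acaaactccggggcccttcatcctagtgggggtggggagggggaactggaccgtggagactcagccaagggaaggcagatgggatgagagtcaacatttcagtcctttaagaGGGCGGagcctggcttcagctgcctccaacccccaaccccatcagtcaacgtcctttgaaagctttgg
Ddr1, downstream first exon, chr17:35700591-35700770, minus strand: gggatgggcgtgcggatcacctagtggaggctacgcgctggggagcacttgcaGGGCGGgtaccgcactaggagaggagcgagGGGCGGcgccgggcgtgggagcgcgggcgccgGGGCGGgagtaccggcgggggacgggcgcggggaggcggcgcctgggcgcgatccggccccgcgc
Mtus2, most upstream first exon, chr5:147957140-147957319, plus strand: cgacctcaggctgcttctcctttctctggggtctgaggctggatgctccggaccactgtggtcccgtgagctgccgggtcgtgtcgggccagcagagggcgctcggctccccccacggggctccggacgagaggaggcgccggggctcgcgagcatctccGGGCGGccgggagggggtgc
Mtus2, most downstream first exon, chr5:148265037-148265216, plus strand: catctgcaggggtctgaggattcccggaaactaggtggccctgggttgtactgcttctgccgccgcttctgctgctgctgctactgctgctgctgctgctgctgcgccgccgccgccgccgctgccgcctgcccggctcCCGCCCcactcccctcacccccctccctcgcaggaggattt

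The stretches before the starts of a gene differed in base composition in Nrxn3 and Ddr1 and less so in Gnas and Mtus2. Whether each stretch acts as a promoter was not tested. For Nrxn3, most upstream refers to the constant first exons. An annotated first exon of Nrxn3 that ends further upstream, at 88723186, was in 3 saline and 2 morphine libraries. The most upstream Nrxn3 stretch shown ends in mostly C and T letters followed by cag, as the end of an intron does. Whether the exon after it is an internal exon listed as a start was not tested. Both Gnas stretches hold TATAAA on the minus strand and have a GC content of 62.8%. The Nrxn3 stretches hold none of the 4 motifs, and their GC content is 48.9%, 47.2% and 58.9%, with 0, 3 and 7 CG dinucleotides. In Ddr1, a collagen receptor kinase gene, the most upstream stretch has a GC content of 57.8%, 4 CG dinucleotides and 1 GGGCGG, and the downstream stretch has 79.4%, 28 CG dinucleotides and 3 GGGCGG. The stretches of Mtus2, a microtubule-associated protein gene, have 73.3% and 69.4% and hold 1 GGGCGG each.

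Over all 380 windows the median GC content was 60.7%, against 62.3% for the constant first exons of other genes and 52.7% for all 32851 RefSeq windows. GGGCGG was in 61.8% of the windows, 69.5% of those of other constant first exons and 35.7% of all windows. TATAAA was in 5.79%, 6.23% and 13.6%, CCAAT in 32.9%, 38.7% and 37.4%, and TGACGTCA in 1.32%, 3.92% and 1.79%. Within the 105 genes with 2 or more matched first exons the range of GC content had a median of 10.3 percentage points and reached 37.0. In genes with a spread over 100000 bases the median was 65.7% at the most upstream first exon (27 windows) and 54.3% at the most downstream one (23 windows). Of 13 such genes with windows at both ends the upstream window was richer in GC in 9. Of 17 genes with a spread of up to 1000 bases, where both ends lie close together, the downstream window was richer in 15.

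**Figure D3:**
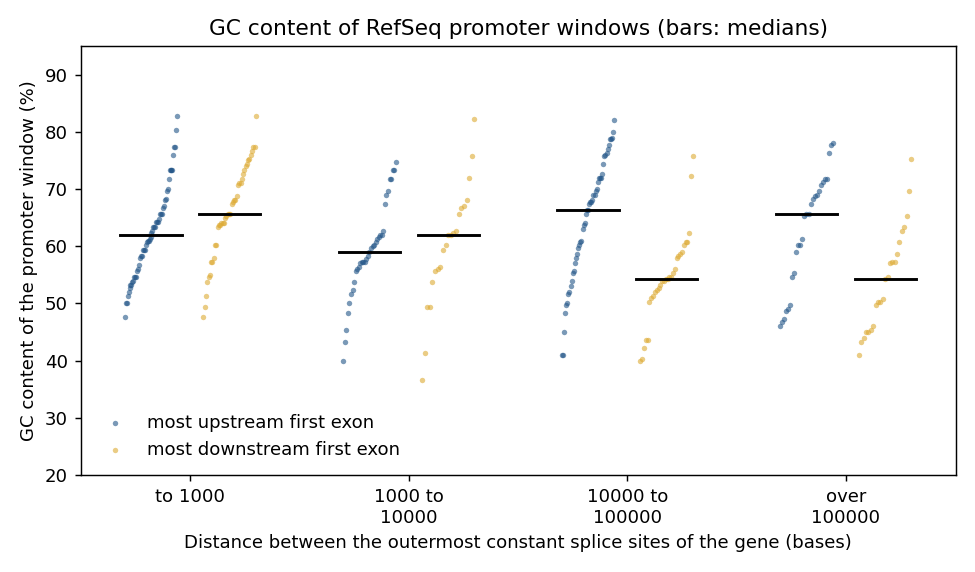
GC content (vertical axis, percent) of RefSeq promoter windows of the most upstream and the most downstream constant first exon, by promoter spread (horizontal axis, bases). Points are windows and bars are medians, which are 65.7% upstream and 54.3% downstream at spreads over 100000 bases and 62.0% and 65.7% at spreads up to 1000 bases.

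The rule fixes the splice site and leaves the transcript start free, so the listed length of a constant first exon could differ between morphine and saline. Most lengths did not vary at all: 913 of 1220 exons (74.8%) had the same start in all 6 libraries, against 70.6% of the other constant first exons. For 139 (11.4%) the longest listing was at least 2 times the shortest. Limma on log2 length, with Benjamini-Hochberg adjustment over all 12564 constant first exons, called 1 member exon, a first exon of Plxnb1, where 0.183% of all exons were called (0.0716% longer in morphine and 0.111% longer in saline). The 3 lengths of 1 group all lay above those of the other in 11 member exons, 9 longer in morphine and 2 longer in saline, where 1.12% of all exons did so (0.533% longer in morphine and 0.589% longer in saline). The median log2 ratio was 0.0 over members and over all exons.

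Plxnb1 encodes plexin-B1, a receptor for semaphorin guidance cues. Its most downstream constant first exon, with the splice site at 109096814 of chromosome 9 on the plus strand, was 105 bases long in each saline library and 863, 1003 and 863 bases long in morphine. All morphine lengths lay above all saline lengths (log2 ratio 3.11, SE 0.07, limma adjusted p = 0.000885). The transcript started at 109096710 in saline. In morphine replicates 4 and 6 it started at 109095952, which is also the start of the neighbouring upstream first exon in all 6 libraries, and in morphine replicate 5 it started at 109095812. The other constant first exons of Plxnb1 were 210 and 251 bases long in every library. An exact permutation test gives p = 0.1 for this exon, the smallest p that 3 samples against 3 allow. Without 1 library in turn limma called 2 to 6 member exons, with 2 without morphine replicate 4 or 6, 4 without morphine replicate 5, 3 without saline replicate 1 and 6 without saline replicate 2 or 3, and the Plxnb1 exon was among them each time.

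The other exons whose groups did not overlap missed the threshold. In Spats2l, a gene of stress granule biology, the exon ending at 57774801 of chromosome 1 was 67, 47 and 58 bases long in saline and 202 bases in every morphine library (log2 ratio 1.83, SE 0.15, limma adjusted p = 0.114). Pitpnm2, a phosphatidylinositol transfer protein gene, had the opposite order at 124184933 of chromosome 5, with 6544, 5044 and 2226 bases in saline and 186 bases in every morphine library (log2 ratio -4.49, SE 0.46, limma adjusted p = 0.285). In saline replicates 1 and 3 this exon shared its start with the upstream neighbour, which was itself 4538, 244 and 220 bases long in saline and 244, 6206 and 244 bases in morphine. The Spats2l exon passed in 3 of 10 alternatives, without saline replicate 2 (limma adjusted p = 0.0400), after quantile scaling (0.0360) and with exons of 1 length in all libraries left out (0.0175). The Pitpnm2 exon passed in 2 of 10, without saline replicate 3 (limma adjusted p = 0.0092) and with exons of 1 length left out (0.0444).

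Adora2a encodes an adenosine receptor that marks the striatopallidal class of medium spiny neurons. Its most downstream constant first exon ends at 75325036 of chromosome 10 and was 101, 1398 and 154 bases long in saline and 3616, 1553 and 4891 bases in morphine. The highest saline length was close to the lowest morphine length, and the fit did not call the exon (log2 ratio 3.43, SE 1.27, limma adjusted p = 0.423). The 2 upstream exons of Adora2a shared a start in 5 of the 6 libraries, and the more upstream one was 205 bases long in all 6.

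Gramd1b, a cholesterol transfer protein gene, had an exon of 1077, 634 and 440 bases in saline and 4574, 2452 and 1862 bases in morphine at 40375913 of chromosome 9. Lasp1, which encodes an actin-binding adaptor, had an exon of 399, 198 and 198 bases in saline and 136, 164 and 171 bases in morphine at 97799197 of chromosome 11. Neither was called (limma adjusted p = 0.423 for each). The remaining exons of this kind were 2 nested ones of Shroom2 and 1 each of Nup93, Arhgap18 and Akap13. Of the Shroom2 pair, the longer exon was 763, 684 and 831 bases long in saline and 1717, 870 and 987 bases in morphine.

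Over all members, the number of exons listed at 2 or more times their shortest length was 58, 52 and 52 over the saline libraries and 66, 51 and 64 over the morphine libraries, and the groups overlapped.

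**Figure D4:**
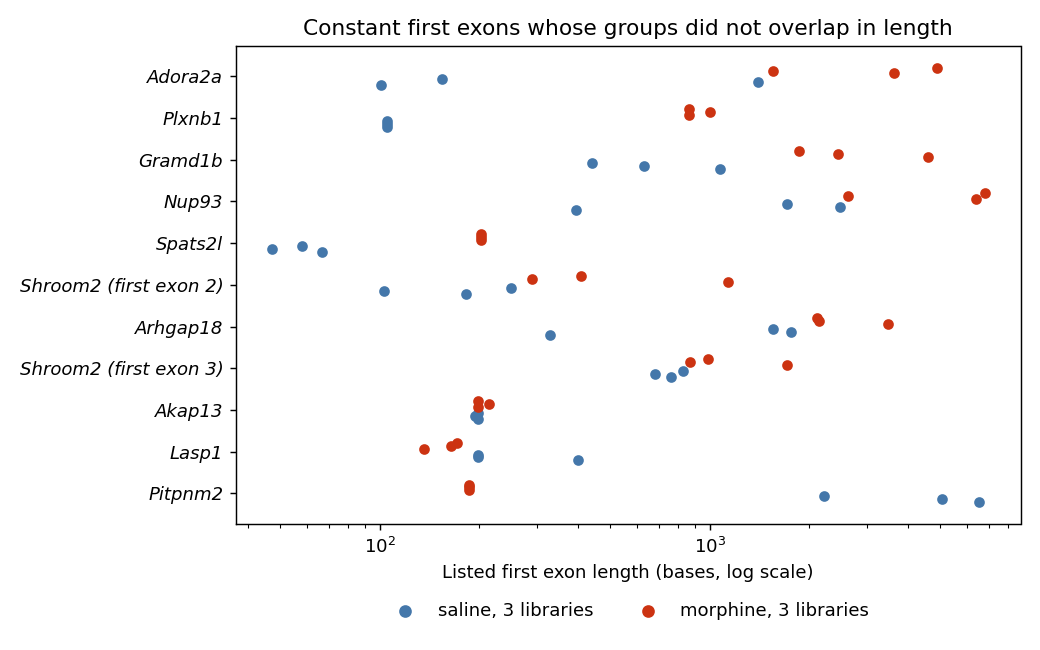
Listed length (horizontal axis, bases, log scale) in each library of the 11 constant first exons whose saline and morphine lengths did not overlap. Points are libraries, 3 per group. The Plxnb1 exon is at 105 bases in saline and 863 to 1003 bases in morphine, and the Pitpnm2 exon at 2226 to 6544 bases in saline and 186 bases in morphine.

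Beside their constant first exons the 366 genes had further first exons, which some libraries listed and others did not. The 3 saline libraries listed 288, 275 and 295 further first exons in these genes and the morphine libraries 273, 297 and 269, so the groups overlapped. In 104 genes (28.4%) no library listed a further first exon, against 49.2% of the other genes with a constant first exon. A mean of at least 0.5 per library was required for the fit, which 189 of the 366 genes reached. Limma on log2(count + 0.5) called 5 of the 189, with 2 higher and 3 lower in morphine, where 1.58% of the 7474 genes tested were called (0.535% higher and 1.04% lower). Groups did not overlap in 11 of the 189, with 5 higher and 6 lower in morphine, where 2.66% of all genes tested did not (0.963% higher and 1.7% lower). Of all genes tested, 17.1% had the same count in all 6 libraries and so could not differ, against 0 of the 189. The member shares and those over all genes are therefore not directly comparable. The median log2 ratio was 0.0 over members and over all genes.

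The number fell in morphine in Lasp1, Ddr1 and Adgrg1. Lasp1 had 2 further first exons in each saline library and 0 in each morphine library (limma adjusted p = 6.42e-06). Of these, the annotated exon ending at 97800240 was 70 bases long in all 3 saline libraries. Ddr1 had 2 in each saline library and 1 in each morphine library (limma adjusted p = 6.42e-06). Its annotated exons ending at 35702102 and 35702004 of chromosome 17 were each in 3 saline libraries. In morphine the exon ending at 35702102 was in replicate 4 alone and the exon ending at 35702004 was in replicates 5 and 6, so both still occurred. Adgrg1, which encodes an adhesion receptor of myelination and cortical development, had 2, 2 and 1 in saline and 0 in every morphine library (limma adjusted p = 0.0324), and no single further exon of it was in all saline libraries. Adgrg1 kept its call in 4 of 12 alternatives, and lost it without saline replicate 1 or 2 or any 1 of the morphine replicates (limma adjusted p from 0.116 to 0.238), with a pseudocount of 1 (0.0664) and with no filter (0.145).

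The number rose in morphine in Ppp1r9a and Rpe. Ppp1r9a, the gene of the dendritic spine protein neurabin, had 0 in each saline library and 2 in each morphine library (limma adjusted p = 6.42e-06). The exons were not the same ones: 2 in morphine replicates 4 and 6 lay on the minus strand, opposite to the gene, and those of morphine replicate 5 on the plus strand. Rpe, which encodes an enzyme of the pentose phosphate pathway, had 0 in every saline catalogue and 2, 2 and 1 in those of morphine (limma adjusted p = 0.0324). It kept its call in 3 of 11 alternatives, and lost it without any 1 of the saline replicates or morphine replicate 4 or 5 (limma adjusted p from 0.116 to 0.194), with a pseudocount of 1 (0.0664) and with no filter (0.145). An exon of 818 bases ending at 66701648 of chromosome 1 was in all 3 morphine libraries. Its splice site lies beside that of a constant first exon of 806 bases, ending at 66701636. With splice sites within 50 bases merged, this exon no longer counted as a further one, and Rpe fell below the minimum mean and was not tested. It was also not tested with a minimum mean of 1.

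Counts of this kind take few values, and 108 of the 118 genes called in the whole series had the same count in all libraries of each group, as did Lasp1, Ddr1 and Ppp1r9a. With genes of 1 count in all 6 libraries left out, none of the 5 was called (limma adjusted p from 0.0601 to 0.256), limma called 0 member genes, and 13 of the 189 had an unadjusted p under 0.05. Without saline replicate 1 the fit called 9 member genes and without saline replicate 3 it called 8. Single further first exons that were in all 3 libraries of 1 group and in none of the other numbered 2 for saline and 3 for morphine among 869 in the member genes, shares of 0.23% and 0.345%, where 0.537% and 0.388% of all 29635 were of these kinds. They lay in Lasp1 and Rasgrp2 for saline and in Rpe, Spag9 and Tnrc6c for morphine. The Rasgrp2 exon ended at 6399968 of chromosome 19, beside a constant first exon ending at 6399964.

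The other events of the same genes, which are last exons, skipped exons, retained introns and alternative exon ends, came to 1514, 1378 and 1396 in the saline libraries and 1487, 1429 and 1418 in the morphine libraries, so the groups overlapped. The median gene had 2.67 such events per library, against 1.5 in the other genes with a constant first exon. Limma on log2(count + 0.5) called 1 of the 366 genes, Elavl4, where 0.613% of the 14527 genes tested were called (0.234% higher and 0.379% lower in morphine). Groups did not overlap in 14 of the 366, with 8 higher and 6 lower in morphine, where 2.48% of all genes tested did not (1.4% higher and 1.08% lower). The same count in all 6 libraries was found in 28.1% of the 366 and 33.8% of all genes tested.

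Elavl4 encodes the neuronal RNA-binding protein HuD, and its events fell in morphine. It had 3 in each saline library and 1 in each morphine library (log2 ratio -1.22, limma adjusted p = 2.39e-08). The events not listed in morphine were 2 exon skipping events around the same 39-base exon at chr4:110209740-110209778, which all 3 saline libraries and no morphine library had. Both were listed under codes ending in ON, whose pattern holds the exon between its flanking positions. Partner rows ending in OFF were not counted, so these listings do not show that saline transcripts lacked the exon. The 3 constant first exons of Elavl4, at 260, 295 and 420 bases, had 1 length in all 6 libraries. With genes of 1 count in all libraries left out limma called 0 member genes (adjusted p = 0.221 for Elavl4), and 13 of the 263 still tested had an unadjusted p under 0.05. The fit called 4 member genes without morphine replicate 4, 6 without morphine replicate 5, 4 without morphine replicate 6, 5 without saline replicate 1 and 3 without saline replicate 3.

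The saline libraries listed 10, 7 and 7 other events in Macf1 and the morphine libraries 15, 17 and 17, and Spats2l had 5, 5 and 3 against 1 in each morphine library. Neither was called (limma adjusted p = 0.332 and 0.134). In Spats2l an exon skipping event, listed under a code ending in ON with 207 bases at chr1:57900634-57900840 in its pattern, was in all 3 saline libraries and in no morphine library. In Gnas the saline libraries listed 6, 6 and 3 events and the morphine libraries 10, 8 and 7 (limma adjusted p = 1.0). An intron retention event with chr2:174328108-174330434 in its pattern was in all 3 morphine libraries and in no saline library. That stretch ends at the splice site of the first exon of the stimulatory subunit and contains this exon. An exon skipping event, listed under a code ending in ON with chr2:174328367-174330434 in its pattern, was also in all 3 morphine libraries and no saline library. Single other events listed by all libraries of 1 group and none of the other made up 0.345% (saline) and 0.658% (morphine) of the 3191 in the member genes and 0.329% and 0.344% of all 86591.

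Retained introns moved with the libraries as a whole. In the member genes the saline libraries listed 268, 151 and 163 of them and the morphine libraries 299, 226 and 236. Over all genes the saline libraries listed 7425, 5074 and 5010 and the morphine libraries 7523, 6361 and 7018. The groups overlapped in each case, and the part of this difference in the Gnas and Pitpnm2 counts was not tested.

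**Figure D5:**
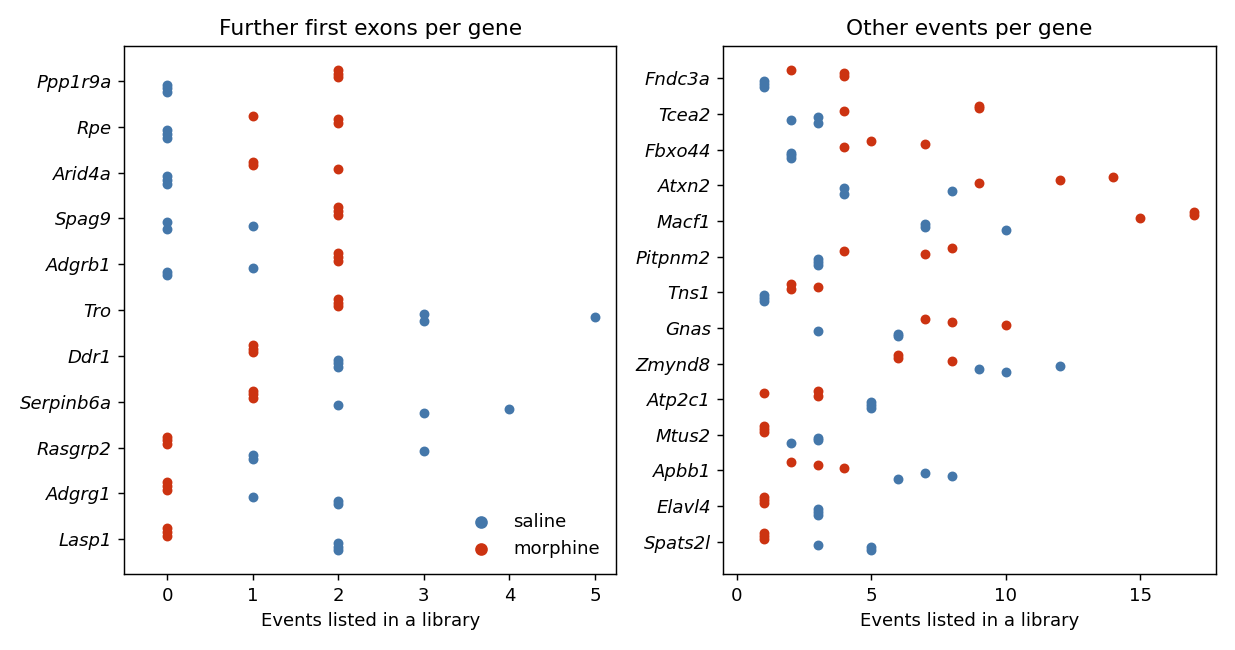
Further first exons (left) and other events (right) listed in each library (horizontal axes, number of events) for the member genes whose saline and morphine counts did not overlap. Points are libraries, 3 per group. Lasp1 goes from 2 in saline to 0 in morphine on the left, and Elavl4 from 3 to 1 on the right.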

How the data were processed

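Per the labels, the 6 libraries are total RNA from the nucleus accumbens, 3 per group. Per the file headers, each deposited file is a catalogue of transcription and splicing events with their gene, coordinates and splice pattern. The deposited column named fpkm holds whole numbers from -24 to 0, was taken as a score of unknown meaning and was not used. Coordinates matched annotated exons of GRCm38, with assembler, event caller, genome build and read depth not given in the sources used here.

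A first exon was identified by gene ID, chromosome, strand and splice site, and its length ran from the listed start to that site. Overlap was read at the shortest listed length. Annotation came from GENCODE M21 and promoter windows from RefSeq. Limma 3.58.1 in R 4.3.3 (eBayes with a trend, Benjamini-Hochberg adjustment over every row tested, threshold 0.05) was fitted to log2 first exon length, log2(further first exons + 0.5) and log2(other events + 0.5), the last 2 with a minimum mean of 0.5. The fits to first exon length and further first exons were also run on simulated data, and the fit to other events was not. The simulated further first exon counts were random, with a spread set by their mean and not by the data. They therefore cannot show how the fit treats genes with identical counts within each group. Exact permutation tests were two-sided. Events whose code ends in OFF were not counted. Named genes were the 10 with the most constant first exons, the 10 with the widest spread, up to 3 per direction and fit with the smallest p among non-overlapping groups, and names from the gene list; Coro1b, Robo1, Adora2a, Shroom2, Nup93, Arhgap18, Akap13, Rasgrp2, Spag9, Tnrc6c and Bdnf were named after their values were seen. One gene that the rule names is not reported here. The members and lists were chosen with earlier results of these data known. Alternatives were each library left out, other pseudocounts and minimums, no trend, quantile scaling, merged splice sites and other membership rules.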

Additional observations from a re-analysis of the deposited data

How the results depend on the processing

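The 366 genes became 1799 with 2 or more constant first exons required, 93 with 4 or more, 562 with presence in the 3 saline libraries alone and 520 with presence in the 3 morphine libraries alone. With splice sites within 50 bases merged there were 327 genes and with annotated splice sites alone 335. Leaving out 1 library, an alternative chosen after seeing the data, gave 391 to 416. Limma called 1 member exon for length, 2 after quantile scaling, 3 with exons of 1 length in all libraries left out (chosen after seeing the data) and 2 to 6 without 1 library. For further first exons it called 5 member genes, 3 with a pseudocount of 1, 3 with no filter, 3 with a minimum mean of 1, 7 with a pseudocount of 0.1, 0 with genes of 1 count left out (chosen after seeing the data, 13 at an unadjusted p under 0.05) and 4 to 9 without 1 library. For other events it called 1, 0 with genes of 1 count left out (chosen after seeing the data, 13 at an unadjusted p under 0.05) and 1 to 6 without 1 library. The cause of these shifts was not tested. The ratio of the member totals, morphine over saline, was 0.978 for further first exons (0.948 to 0.997 without 1 library) and 1.01 for other events (0.993 to 1.04). Of the log2 ratios of single exons and genes under all alternatives, 375 stayed on their side of the threshold, 18 passed it, 20 no longer passed it and none changed sign. Adgrg1 kept its call in 4 of the 12 alternatives that tested it and Rpe in 3 of 11, which makes up most of the losses. Merging splice sites left Rpe untested. No paired analysis was possible because the saline and morphine samples share no replicate numbers. The unknown depth of each catalogue limits every statement on an event that is not listed.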
